A study of Gallus gallus with 16 samples.

Results

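The comparison described here is that of the pituitary gland between laying hens with high egg production (HEP) and hens with low egg production (LEP). It rests on 6 of the 16 libraries of the series, 3 from HEP hens and 3 from LEP hens. Of the 17108 genes listed, 11664 were kept, namely those with a mean of at least 1 FPKM over the 6 pituitary libraries and a value above 0 in all 6. FPKM, fragments per kilobase of transcript scaled to the library's mapped fragments, is meant to make RNA levels comparable between genes of different length. This was not checked here.

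All birds were female Luhua chickens, a Chinese breed, sampled at day 300 and fed without restriction. A flock of 856 was ranked by its number of eggs, and the 200 best and the 200 poorest layers formed the HEP and LEP groups, from which 3 hens each were sequenced. Hens are called HEP 1, HEP 2 and HEP 3, and LEP 4, LEP 5 and LEP 6, by the numbers in the labels. The groups differ in laying record and carry no named allele or treatment, and each library comes from the gland of a single numbered hen.

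The pituitary links the brain to the ovary. Its anterior lobe releases follicle-stimulating hormone and luteinising hormone, which drive follicle growth, steroid production and ovulation, under the control of gonadotropin-releasing hormone from the hypothalamus. In birds, prolactin from the same gland is released under the control of vasoactive intestinal peptide, and high prolactin accompanies broodiness, when laying stops. Genes are identified in the data by Ensembl number alone. None of the 17108 numbers could be paired with a gene symbol, so hormone and receptor genes, and the markers that would check the tissue label, were not assigned here. A bulk gland also cannot tell fewer cells of a type from less RNA per cell.

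The 6 libraries were alike in the number of genes they list, at 13755 to 14043 genes above 0 FPKM in HEP and 13713 to 13927 in LEP. Most of the summed FPKM sat in few genes. The 10 most abundant took 67.0%, 75.7% and 68.1% of it in HEP 1, HEP 2 and HEP 3, against 68.5%, 69.0% and 75.7% in LEP 4, LEP 5 and LEP 6. HEP 2 and LEP 6, one library of each group, had the highest sums. The third most abundant gene reached 239313 FPKM in HEP 2 and, on the LEP side, 355739 FPKM in LEP 6, with 15863 to 20880 FPKM in the other 4 libraries, so its level marked a pair of hens across the groups. LEP 6 listed 876 genes at 100 FPKM or more, against 602 to 669 in the other 5. None of 12 library measures passed a test between HEP and LEP (exact permutation tests, two-sided, lowest p = 0.2, adjusted p = 0.98, where 3 against 3 cannot go below 0.1).

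Similarity between hens did not follow the production groups. On the log2(FPKM + 1) scale, libraries correlated across the 11664 genes with r of 0.966 to 0.990 within HEP and 0.971 to 0.975 within LEP, and with 0.966 to 0.991 between the groups. The closest pair of all was HEP 1 and LEP 4, at r = 0.991, in which 41 genes differed by 1 log2 unit or more. HEP 1 and HEP 3 came next, at r = 0.990 with 45 such genes. The most distant pair by that count was also within a group, HEP 2 and HEP 3, with 485 genes. By r the most distant pair was between the groups, HEP 3 and LEP 5, at 0.9656, close to 0.9664 for HEP 2 and HEP 3. Genes varied more between LEP hens, with a median SD of 0.19 on the log2 scale in HEP and 0.24 in LEP (n = 3 each), and the SD was larger in LEP for 61.7% of genes. Among the 647 genes with a mean of 100 FPKM or more it was larger in LEP for 79.3%. The larger LEP spread, on FPKM as deposited, lay in the pairs with LEP 6. The median absolute log2 difference was 0.195 between LEP 4 and LEP 5. It was 0.327 between LEP 4 and LEP 6, 0.343 between LEP 5 and LEP 6, and 0.201 to 0.292 within HEP.

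**Figure D1:**
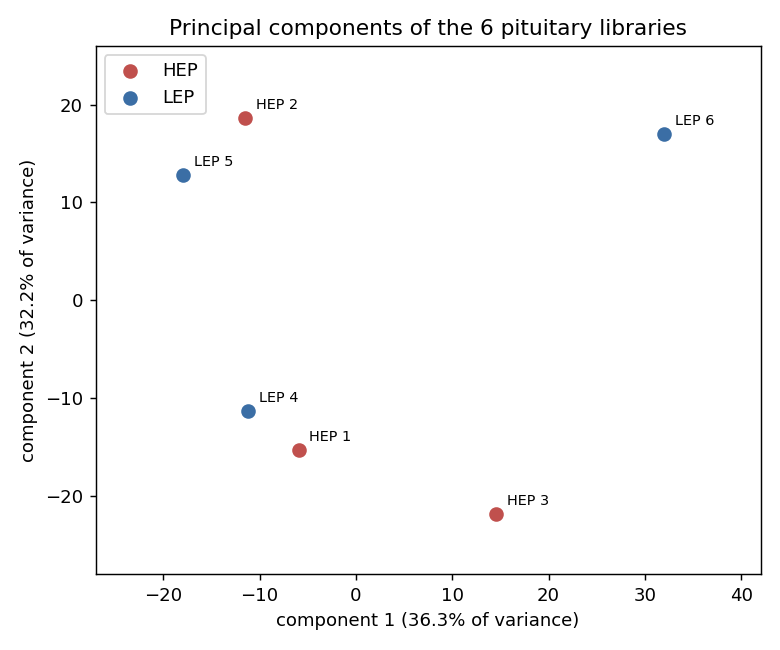
The 6 pituitary libraries on their first 2 principal components of log2(FPKM + 1), with HEP libraries in red and LEP libraries in blue, each point being a hen. The axes hold 36.3% and 32.2% of the variance, HEP and LEP libraries overlap on both, and LEP 6 lies farthest out on component 1.

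Principal components gave the same order of things. HEP libraries lay between -11.5 and 14.5 on the first component and LEP libraries between -17.9 and 32.0. On the second they lay between -21.9 and 18.6 in HEP and between -11.3 and 17.0 in LEP. The groups overlapped on each of these axes, as they did on the next pair of axes, which held 16.3% and 11.3% of the variance.

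The study's question for this tissue is which pituitary genes differ with egg production. A single gene passed the test, ENSGALG00000020982, which was higher in HEP pituitaries. No gene was lower past the threshold. This is 0.00857% of the genes tested with limma (adjusted p under 0.05), and 267 genes, or 2.29%, had an unadjusted p under 0.05, where 5% is the share expected by chance. Of these 267 genes, 89 (0.763% of those tested) were higher and 178 (1.53%) lower in HEP.

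ENSGALG00000020982 stood at 4.58, 15.4 and 9.99 FPKM in HEP 1, HEP 2 and HEP 3, against 0.102, 0.271 and 0.125 FPKM in LEP 4, LEP 5 and LEP 6. Every HEP pituitary was above every LEP pituitary, and the lowest HEP value belonged to HEP 1. The group means, 9.97 ± 5.39 FPKM for HEP pituitaries and 0.166 ± 0.092 FPKM for LEP pituitaries (SD, n = 3 each), had a ratio of 60.1. On the log2(FPKM + 1) scale the difference was 3.10, smaller than the log2 ratio because the added 1 outweighs the LEP values (SE 0.32, 95% interval 2.41 to 3.80, limma adjusted p = 0.00248). On that scale its own SD was 0.78 in HEP and 0.11 in LEP. The variance behind the SE and p-value was drawn toward the trend over all genes, so the call rests only in part on this spread. The gene was listed at 0 in each of the 5 ovary and 5 hypothalamus libraries. Hypothalamus libraries HEP 1, LEP 5 and LEP 6 list few genes, and ovary and hypothalamus of HEP 2, the hen with the highest pituitary value, were not analysed here. The call was lost without LEP 6 (log2 difference 3.08, SE 0.39, limma adjusted p = 0.335), after median-ratio scaling of the libraries (3.11, SE 0.36, adjusted p = 0.326) and after quantile normalization (3.10, SE 0.37, adjusted p = 0.349). It was also lost when 156 genes with a value of 0 in some pituitary entered the fit (3.10, SE 0.35, adjusted p = 0.1004). In these fits the difference hardly moved while its SE grew and the degrees of freedom dropped, from 13.3 as deposited to between 7.50 and 9.33.

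ENSGALG00000014843 was next among genes with higher values in HEP by at least 1 log2 unit, and did not pass. It stood at 8.92, 8.55 and 12.6 FPKM in HEP 1 to HEP 3, against 4.38, 2.66 and 4.16 FPKM in LEP 4 to LEP 6. The groups did not overlap, with a log2 difference of 1.22 (SE 0.22, 95% interval 0.74 to 1.70, limma adjusted p = 0.295). Its level in the hypothalamus libraries HEP 3 and LEP 4 was 11.7 and 7.35 FPKM, LEP 5 had 10.7 FPKM there while HEP 1 and LEP 6 were listed at 0, and in the ovary it reached no more than 1.34 FPKM.

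Of the genes with lower values in HEP, ENSGALG00000009808 had the lowest p. It stood at 5.08, 4.31 and 4.03 FPKM in HEP 1 to HEP 3, against 8.54, 21.7 and 23.2 FPKM in LEP 4 to LEP 6. The HEP values were close together, and LEP 4 was nearer to them than to the other LEP hens. The log2 difference was -1.67 (SE 0.30, 95% interval -2.31 to -1.03, limma adjusted p = 0.295), and it passed without HEP 1 (-1.75, SE 0.32, adjusted p = 0.0220) and without LEP 4 (-2.10, SE 0.23, adjusted p = 0.000795). It passed in 3 of 17 alternatives, and not after median-ratio scaling (-1.64, SE 0.32) or without LEP 6 (-1.43, SE 0.33). In the ovary the same gene had 5.89 and 1.18 FPKM in HEP 1 and HEP 3 and 1.48, 1.45 and 5.81 FPKM in LEP 4 to LEP 6, with the groups overlapping.

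ENSGALG00000004298 had 15.9, 5.29 and 4.68 FPKM in HEP 1 to HEP 3, against 31.9, 32.1 and 23.2 FPKM in LEP 4 to LEP 6. HEP 1 lay between the other HEP hens and the LEP hens. The log2 difference was -1.82 (SE 0.33, 95% interval -2.53 to -1.10, limma adjusted p = 0.295). Without HEP 1 it was -2.32 (SE 0.26, adjusted p = 7.30e-06). The gene passed in 2 of 17 alternatives, and not without HEP 3 (-1.53, SE 0.33), without LEP 6 (-1.97, SE 0.41) or after median-ratio scaling (-1.79, SE 0.43). This gene belonged to those enriched in the pituitary, with at most 2.38 FPKM in any ovary and 0.339 FPKM in any hypothalamus library.

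**Figure D2:**
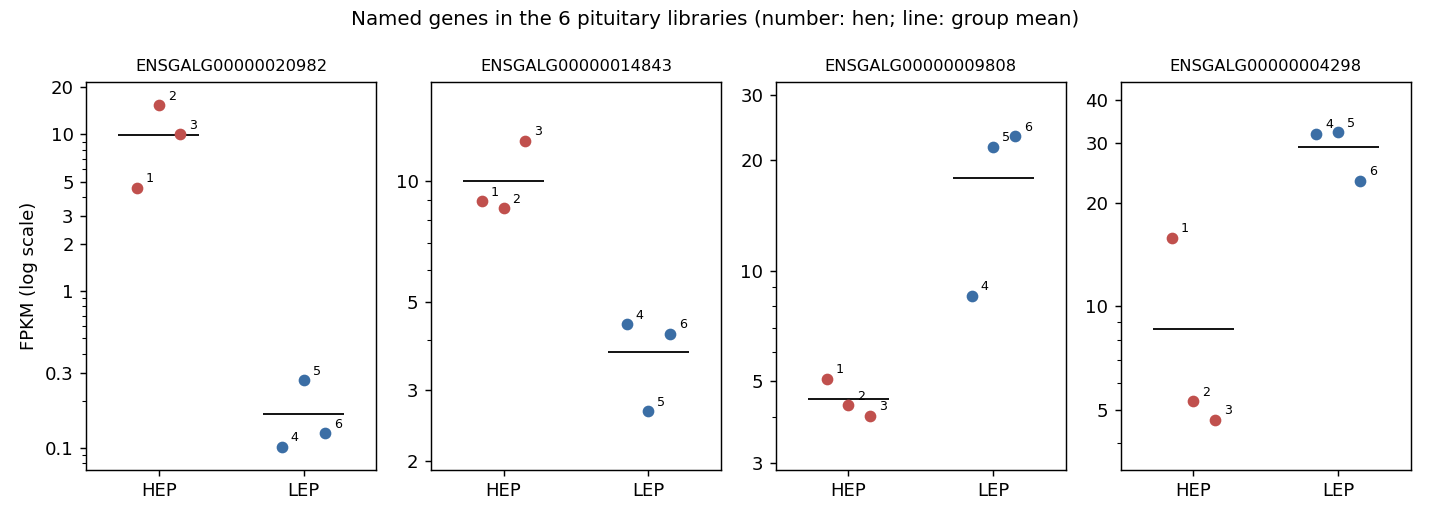
FPKM (log scale) of the 4 named genes in the 6 pituitary libraries, HEP in red and LEP in blue, with the hen's number beside each point and the group mean as a line. HEP and LEP libraries do not overlap in any of the 4, and ENSGALG00000020982, with HEP points from 4.58 to 15.4 FPKM and LEP points from 0.102 to 0.271 FPKM, is set farthest apart. The 4 were chosen for low p in these same libraries, so the separation follows largely from the choice.

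Differences of this size were few. A log2 difference of at least 1 was found for 15 genes higher in HEP, 0.129% of those tested, and for 12 genes lower in HEP, 0.103%. Groups did not overlap in 9 of the 15 (0.0772% of genes tested) and 7 of the 12 (0.06%). Among the 10 higher genes of lowest p, the third stood at 18.0, 13.4 and 21.8 FPKM in HEP 1 to HEP 3, against 7.03, 6.26 and 9.14 FPKM in LEP 4 to LEP 6. Its log2 difference was 1.13 (SE 0.22, limma adjusted p = 0.323). The third of the lower genes stood at 4.60, 2.31 and 1.85 FPKM in HEP, against 9.38, 6.13 and 8.83 FPKM in LEP. Its log2 difference was -1.26 (SE 0.26, limma adjusted p = 0.550). An abundant gene among the lower ones had 197, 217 and 96.4 FPKM in HEP, against 285, 243 and 590 FPKM in LEP (log2 difference -1.10, SE 0.34, limma adjusted p = 1.00). Here the highest HEP and the lowest LEP library were close, HEP 3 was the lowest and LEP 6 the highest. Past the first 4, the other higher genes of these 10 had adjusted p from 0.980 to 1.00, and the tenth rested on 2 hens. It stood at 2.73, 0.0904 and 3.47 FPKM in HEP, against 0.0929, 0.0789 and 0.111 FPKM in LEP, so that HEP 2 was among the LEP values. This gene met the minimum mean through HEP 1 and HEP 3.

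**Figure D3:**
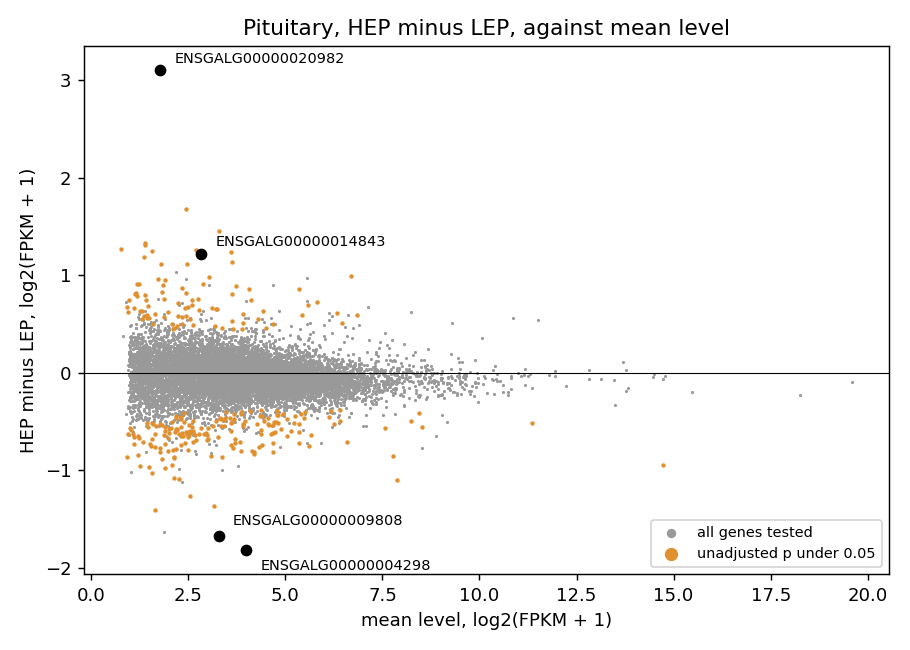
HEP minus LEP difference on the log2(FPKM + 1) scale for each of the 11664 genes against its mean level, with genes at an unadjusted p under 0.05 in orange and the 4 named genes in black. Most genes lie within 1 log2 unit of 0, and ENSGALG00000020982 lies alone at 3.10.

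On the log2(FPKM + 1) scale, the data as deposited bound the difference from above for most genes. The median absolute difference was 0.11 log2 units, the median SE was 0.21, and the 95% interval reached a median of 0.44 to either side. In 11098 genes, or 95.1%, the whole interval lay within 1 log2 unit of 0. This share was 87.6% for the 1421 genes at 1 to 3 FPKM and 97.6% for the 2164 genes at 30 to 100 FPKM. The added 1 compresses low levels, so at a few FPKM a bound of 1 log2 unit is wider than a doubling. ENSGALG00000013948, for example, had a ratio of group means of 4.04 at a log2 difference of 1.19.

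The 10 most abundant genes were among the less well bounded. The first stood at 606229, 1150000 and 657031 FPKM in HEP 1 to HEP 3, against 686566, 670857 and 1220000 FPKM in LEP 4 to LEP 6 (log2 difference -0.10, 95% interval -1.40 to 1.20). HEP 2 and LEP 6 were the high ones. The second stood at 288597, 244539 and 339632 FPKM in HEP, against 340676, 300904 and 373779 FPKM in LEP (log2 difference -0.23, 95% interval -1.25 to 0.80). In the fifth, the HEP values of 21818, 17037 and 20194 FPKM all lay below the LEP values of 27423, 36046 and 54546 FPKM (log2 difference -0.95, 95% interval -1.69 to -0.21, limma adjusted p = 1.00). The eighth had 21991, 24169 and 21197 FPKM in HEP, against 22545, 17837 and 30761 FPKM in LEP, with overlap (log2 difference -0.045, 95% interval -0.73 to 0.64). In 9 of these 10 genes the difference was below 0, and none passed. It was also below 0 in 486 of the 647 genes at 100 FPKM or more, where the direction depended on LEP 6.

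Genes with lower values in HEP outnumbered those with higher values in the deposited FPKM. The difference was positive for 4907 genes and negative for 6757. All HEP libraries were above all LEP libraries in 145 genes, or 1.24% of those tested, and below them in 450, or 3.86%, which makes 5.1% in both directions. For a gene without a difference, the chance of such separation at 3 against 3 is 0.1 over both directions, which is above the share seen. The imbalance between the directions depended on scaling. After median-ratio scaling the numbers were 399 genes above and 397 below (6.82% of genes tested). After quantile normalization they were 437 above and 389 below (7.08%). These shares are also under the chance of 0.1. Of the 145 genes, 112 kept their place after median-ratio scaling, and of the 450 genes 223 did. The scale factors were 0.955, 0.934 and 1.09 in HEP 1 to HEP 3, against 0.960, 0.926 and 1.17 in LEP 4 to LEP 6, and the median difference over all genes was -0.030 as deposited and -0.0017 after scaling. At an unadjusted p under 0.05, 89 genes were higher and 178 lower as deposited (2.29% of genes tested). After quantile normalization 135 were higher and 178 lower (2.68%), so that the share of higher genes moved from 33.3% to 43.1%. That share passed 50% without HEP 2 (331 higher and 261 lower, 5.08% of genes tested). It also did without LEP 6 (175 higher and 164 lower, 2.91%). It was 69.8% without both, a pair chosen after the data were seen (739 higher and 319 lower, 9.07%).

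The excess of lower values grew with the level of the gene. Of 1421 genes at 1 to 3 FPKM, 49.7% had a higher mean in HEP, and of 3235 genes at 3 to 10 FPKM 50.6%. The share was 42.4% at 10 to 30 FPKM, 28.7% at 30 to 100 FPKM and 24.9% for the 647 genes at 100 FPKM or more. LEP 6 decided the direction at 100 FPKM or more. Without it 65.8% of the genes at 100 FPKM or more and 65.3% of all genes had a higher mean in HEP, while with any other library left out the share was 12.8% to 37.6% at 100 FPKM or more. Over all genes the share also passed 50% without HEP 2, at 51.1%. After quantile normalization 51.8% of the genes at 100 FPKM or more had a higher mean in HEP. After median-ratio scaling the share was 33.7% there and 38.3% at 30 to 100 FPKM, against 52.9%, 56.7% and 51.1% in the 3 classes below 30 FPKM.

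**Figure D4:**
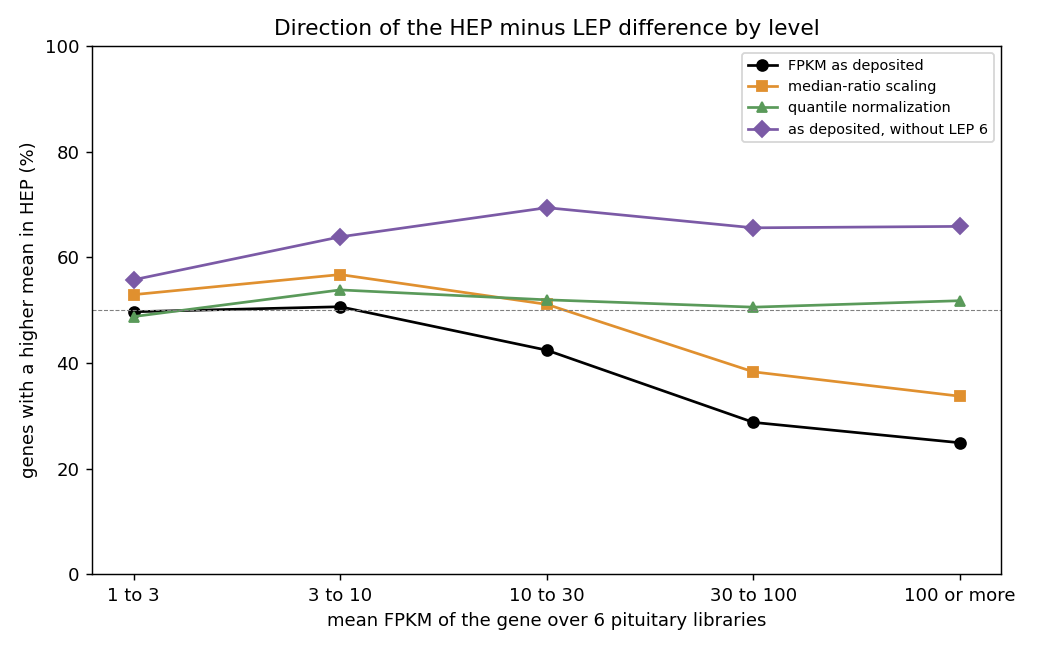
Share of genes with a higher mean in HEP than in LEP, in percent, by mean FPKM over the 6 pituitary libraries, for FPKM as deposited, after 2 rescalings and without LEP 6. As deposited the share drops to 24.9% at 100 FPKM or more, while it is 33.7% there with median-ratio scaling, 51.8% with quantile normalization and 65.8% without LEP 6.

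Genes were then grouped by where else they are expressed, from mean levels in the pituitary, the ovary and the hypothalamus libraries HEP 3 and LEP 4, those of that tissue that list most genes. The mean pituitary level was at least 2 log2 units above both other tissues in 328 genes. Of these, 117 had a higher and 211 a lower mean in HEP, with a median difference of -0.071, against -0.030 for all 11664 genes. At an unadjusted p under 0.05, 6 were higher and 11 lower, or 5.18%. The share was 4.60% among genes above the ovary alone and 6.37% among genes above the hypothalamus alone, against 1.97% of the remaining genes and 2.29% of all genes. The share expected by chance is 5%. These class shares were counted on FPKM as deposited only, and a difference between the classes was not tested. The 239 genes above the ovary alone had a median of -0.029 (3 higher and 8 lower at that p), and the 455 genes above the hypothalamus alone had -0.057 (10 higher and 19 lower). The remaining 10642 genes had a median of -0.029 (70 higher and 140 lower). After median-ratio scaling, the median of the 328 pituitary-enriched genes was -0.042, with 133 higher and 195 lower, while 122 of the 239 genes above the ovary alone were higher and 117 lower. ENSGALG00000020982 and ENSGALG00000004298 were among the 328. The first of them met the minimum mean and the distance from the other tissues through its HEP values, so its place there follows from its difference. The classes use the mean of the same 6 pituitary libraries, so other genes can also enter a class through the values of a single group. The class shares at an unadjusted p under 0.05 are thus not independent of how the classes were set.

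The difference in the pituitary was then set against that in the hens' ovaries. The ovary is represented by HEP 1, HEP 3, LEP 4, LEP 5 and LEP 6. Of the 11664 genes, none passed the limma test of the difference between the pituitary and the ovary effect of HEP, and 120, or 1.03%, had an unadjusted p under 0.05. This last number was 79 (0.677%) without hen 1, 274 (2.35%) without hen 4 and 603 (5.17%) without hen 6. ENSGALG00000020982 had the lowest p, with a pituitary effect larger by 3.10 log2 units (SE 0.46, 95% interval 2.12 to 4.09, limma adjusted p = 0.131). Since this gene is listed at 0 in every ovary, that value is the pituitary difference itself and says nothing of an effect in the ovary. With hen as a block none passed either.

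ENSGALG00000013948 came next in that direction. It had 2.50, 3.34 and 2.75 FPKM in the pituitaries of HEP 1 to HEP 3, against 1.02, 0.690 and 0.420 FPKM in those of LEP 4 to LEP 6. In the ovary, where it was more abundant, HEP 1 and HEP 3 had 15.2 and 19.1 FPKM and LEP 4 to LEP 6 had 13.9, 16.03 and 17.6 FPKM. HEP and LEP were apart in the pituitary and overlapped in the ovary (pituitary minus ovary effect 1.08 log2 units, SE 0.30, limma adjusted p = 1.00). With pituitary means of 2.86 FPKM in HEP and 0.709 FPKM in LEP, it met the minimum mean through its HEP values. Its place among the genes tested is thus not independent of its difference.

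A pair of genes lay on opposite sides in the tissues on FPKM as deposited. ENSGALG00000000695 had 6.05, 5.35 and 5.93 FPKM in HEP pituitaries, against 6.996, 6.76 and 7.18 FPKM in LEP pituitaries, and 19.2 and 18.1 FPKM in HEP ovaries, against 12.2, 6.94 and 8.57 FPKM in LEP ovaries. HEP was thus below LEP in every pituitary and above it in every ovary (pituitary minus ovary effect -1.21, SE 0.29, limma adjusted p = 1.00). ENSGALG00000015577 had 5.19, 4.12 and 4.33 FPKM in HEP pituitaries, against 6.66, 6.06 and 5.995 FPKM in LEP pituitaries, and 4.56 and 5.19 FPKM in HEP ovaries, against 3.67, 2.05 and 2.58 FPKM in LEP ovaries. The order of the groups again changed with the tissue (-1.05, SE 0.30, limma adjusted p = 1.00).

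**Figure D5:**
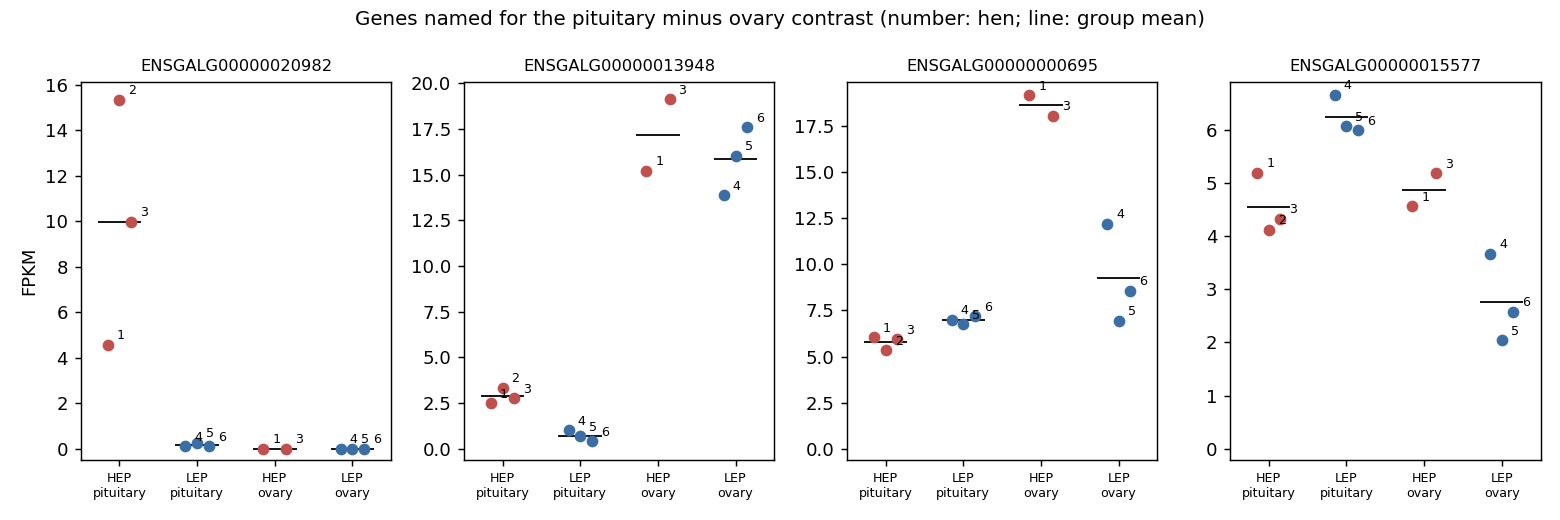
FPKM of the 4 genes named for the pituitary minus ovary contrast in pituitary and ovary, HEP in red and LEP in blue, with the hen's number beside each point and the group mean as a line. ENSGALG00000020982 is at 0 in every ovary, and in ENSGALG00000000695 and ENSGALG00000015577 HEP lies below LEP in the pituitary and above it in the ovary. The 4 were chosen for low p in that contrast, so such orders follow largely from the choice.

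Opposite orders of this kind were a minority of the genes without overlap, and so were like orders. Most overlapped in the ovary, 83.4% of those above in the pituitary and 89.8% of those below, against 85.3% of all genes. Of the 145 genes with every HEP pituitary above every LEP pituitary, 20 (13.8%) also had every HEP ovary above every LEP ovary. This held for 4.67% of all genes in the ovary. The reverse order in the ovary was seen in 4 (2.76%), against 10% of all genes. Seen from the ovary, 20 of the 545 genes above there (3.67%) were above in the pituitary too, against 1.24% of all genes compared. Of the 450 genes below in the pituitary, 38 (8.44%) were below in the ovary too, which held for 1167, or 10%, of all genes. Another 8 (1.78%) were above in the ovary, against 4.67% of all genes. After median-ratio scaling within each tissue, 52 of 399 genes (13%) above in the pituitary were above in the ovary, where 7.12% of all genes were. Of the 397 below in the pituitary, 41 (10.3%) were below in the ovary, where 8.2% of all genes were. The reverse order was seen in 17 of the 399 (4.26%, against 8.2%) and in 8 of the 397 (2.02%, against 7.12%). The ovaries come from the same hens as the pituitaries, with HEP 2 on the pituitary side only. The orders in the tissues need not be independent, and a difference between these shares was not tested.

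Of 11820 genes with a mean of at least 1 FPKM, 156 had a value of 0 in some pituitary, 20 of them with a mean of 100 FPKM or more. None of the 156 was at 0 in all hens of a group and above 0 in all of the other. There were 21 at 0 in all HEP pituitaries and 36 at 0 in all LEP pituitaries, and each of these was also at 0 in at least 1 hen of the other group. Around the threshold of 1 FPKM, the 5 genes just inside had means of 1.001 to 1.005 FPKM and differences of -0.12 to 0.19 log2 units, and the 5 just outside had means of 0.995 to 0.999 FPKM and differences of -0.29 to 0.034.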

How the data were processed

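Per the labels' protocols, total RNA was purified on RNeasy columns, made into standard Illumina libraries and, per the series design, read on a HiSeq instrument. The authors deposited FPKM values, with 1 column per library and no pooling. For aligner, quantifier, annotation and genome build, the entry is: not given in the sources used here. The reference gene table (25635 genes, assembly GRCg7b) matched 0 identifiers, so the gene lists and cell type markers drawn up by symbol could not be used. Depth per library is unknown: ratios of genes under 0.3 FPKM between libraries fell within 0.05 log2 of a common value in 5.16% to 20.2% of genes, too few to recover whole reads. FPKM shares within a library move together, so a few very abundant genes can shift the rest.

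From these values, log2(FPKM + 1) was fitted with limma 3.58.1 under R 4.3.3 (trended empirical Bayes, two-sided, Benjamini-Hochberg over 11664 genes, threshold 0.05) on the 6 pituitary libraries, and on pituitary and ovary group means for the difference of effects. Labels name single hens, so the spread is that between hens. The fit draws each gene's variance toward the trend over all genes (13.3 total degrees of freedom). A gene's SE and p-value thus rest only in part on its own spread between hens, and can be smaller than that spread alone would give. Tissues of a hen share its number. Across genes, a hen's pituitary and ovary deviations from their group means had r of -0.129 to 0.092 over 5 hens. HEP 2 was left out of this. Deviations of the remaining 2 HEP hens mirror each other, so both had r = 0.092, and the 5 values are not independent. Genes named were those past the threshold, then those of lowest p at a log2 difference of at least 1, at most 2 per direction and comparison. Members, lists and tests were chosen with earlier results of these data known. The fits were run on simulated data with independent noise for each gene and no shifts of whole libraries. The condition set there was on the mean size of the estimates, so it does not bear on scaling. Alternatives were the pseudocount, filters, scaling, the variance model and left-out libraries, and 2 added after the data were seen. Figures were drawn with matplotlib 3.10.9.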

Additional observations from a re-analysis of the deposited data

How the results depend on the processing

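The number of pituitary genes past the threshold was 1 as reported. It was 0 when genes with a value of 0 were admitted, 0 after median-ratio scaling, 0 after quantile normalization, and 0 to 4 when a library was left out (4 genes when HEP 1 was missing, 3 for HEP 2, 2 for LEP 4 and 0 for LEP 6). It stayed at 1, the same gene, with a pseudocount of 0.1 or 0.01, a minimum mean of 5 FPKM or none, no trend, robust fitting, the group means of 16 libraries, and without HEP 3 or LEP 5. In the fit of 16 libraries, the added ovaries and hypothalami all list this gene at 0. They add no spread for it, so its smaller SE there (0.28) is no further check of the call. Leaving out HEP 2 and LEP 6 together, chosen after the data were seen, left 2 hens per group and gave 53 genes, 39 higher and 14 lower. The cause of these changes was not tested. At an unadjusted p under 0.05 the 267 genes became 42 in the fit of 16 libraries, 156 at a minimum mean of 5 FPKM, 592 with HEP 2 left out, 175 with HEP 3 left out, 556 with LEP 4 left out and 1058 with both HEP 2 and LEP 6 left out. ENSGALG00000020982 kept its direction in all 17 alternatives, with adjusted p from 3.96e-08 to 0.349, and lost the call in 4. ENSGALG00000014843, ENSGALG00000009808 and ENSGALG00000004298 kept theirs and passed in 1, 3 and 2 of 17. For the pituitary minus ovary difference the number past the threshold was 0, and 0 to 1 when a hen was left out (1 without hen 1, ENSGALG00000020982, adjusted p = 0.0243). The number past the threshold was also 0 with a pseudocount of 0.1, with quantile normalization and with median-ratio scaling within tissues. At an unadjusted p under 0.05 the 120 genes (1.03% of those tested) became 79 (0.677%) without hen 1 and 274 (2.35%) without hen 4. They were 603 (5.17%) without hen 6 and 185 (1.59%) with quantile normalization. With hen as a block over the 5 hens with both tissues the number past the threshold was 0, and the block changed no call. There 157 genes (1.35%) had an unadjusted p under 0.05. With no depth known, counting error of low values could not be set against the spread between hens.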
